A study of Homo sapiens with 8 samples.

Results

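The contractile actin and SRF target genes described here are 10 genes, namely ACTA2, TPM1, TPM2, MYL9, CNN1, CNN2, CNN3, TAGLN, TAGLN2 and SRF. They were taken by gene symbol from a table of 58870 genes, as a list drawn up with earlier results of these data known, and 9 of the 10 passed the filter on low counts that preceded testing. RNA was sequenced from CFPAC-1, an established cell line of human pancreatic ductal adenocarcinoma. In 4 samples the cells carried an empty vector and in the other 4 an ADRA2A transgene, which encodes the alpha-2A adrenergic receptor, a receptor coupled to inhibitory G proteins. All 8 samples were grown for 72 hours in IMDM with 10% fetal bovine serum and 1% penicillin-streptomycin, and the labels list no drug treatment. The promoter that drives the transgene, and whether the cells were 1 clone or a pool, are not given in the sources used here. Nor do they tell separate cultures from repeats of 1 culture, so the p-values measure the spread between these samples, which may be technical.

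Contraction in cells that are not muscle rests on actin filaments pulled by non-muscle myosin. Tropomyosins lie along the filament and gate access of myosin, the regulatory light chain MYL9 switches the myosin motor when it is phosphorylated, and calponins and transgelins bind and bundle the filaments. Many of these genes carry CArG boxes, the binding sites of serum response factor, which is the product of SRF. SRF works with MRTF coactivators, which are held in the cytoplasm by monomeric actin and released when actin is driven into filaments, or with ternary complex factors, which respond to ERK signalling. In tissue, ACTA2, TAGLN and CNN1 serve as markers of smooth muscle and myofibroblasts, whereas TAGLN2, CNN2 and CNN3 are expressed in many other cells.

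The promoters of the members were read from RefSeq on GRCh38.p14, as windows from 250 bases before to 50 bases after each annotated start. Windows were found for 8 of the 10 members, 14 windows in all, and none was found for MYL9 and TAGLN. The CArG box was searched as a pair of C, then 6 letters that are each A or T, then a pair of G, which reads alike on both strands. It was present in 2 of the 14 windows, 1 of SRF and 1 of CNN2, and in 1.29% of all 35116 RefSeq windows of this length. The SRF window held 2 boxes, at -30 to -21 and -10 to -1 from the start, and 0.0313% of all windows held at least 2. The window of CNN2 held 1 box, at -89 to -80. No box was found in the windows of TPM1, TPM2, CNN1, CNN3 and TAGLN2. Sequence outside the windows, such as introns and bases further upstream, was not searched. One of the ACTA2 windows held 2 boxes with 1 letter other than A or T among the middle 6, at -121 to -112 and -71 to -62, a looser match that 6.94% of all windows contain. The 250 bases before the start are shown for the SRF and CNN2 windows with a box, for this ACTA2 window with its looser boxes, and for CNN3, the member with the largest fall among those with a window. Capitals mark the boxes. The matches describe these letters only and were not tested for binding. The stretches are SRF at chr6:43171019-43171268 (plus strand), CNN2 at chr19:1026358-1026607 (plus strand), ACTA2 at chr10:88952774-88953023 (minus strand) and CNN3 at chr1:94927111-94927360 (minus strand).
SRF: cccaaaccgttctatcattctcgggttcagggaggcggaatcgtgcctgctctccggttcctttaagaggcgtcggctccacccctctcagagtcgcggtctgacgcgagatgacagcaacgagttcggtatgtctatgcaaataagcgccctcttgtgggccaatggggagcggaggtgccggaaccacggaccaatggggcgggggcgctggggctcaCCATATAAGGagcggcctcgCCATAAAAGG
CNN2: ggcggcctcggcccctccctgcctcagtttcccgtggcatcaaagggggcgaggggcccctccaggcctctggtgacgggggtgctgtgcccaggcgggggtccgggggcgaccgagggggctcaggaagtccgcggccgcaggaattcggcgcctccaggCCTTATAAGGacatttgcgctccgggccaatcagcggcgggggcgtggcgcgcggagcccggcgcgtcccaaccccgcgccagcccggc
ACTA2: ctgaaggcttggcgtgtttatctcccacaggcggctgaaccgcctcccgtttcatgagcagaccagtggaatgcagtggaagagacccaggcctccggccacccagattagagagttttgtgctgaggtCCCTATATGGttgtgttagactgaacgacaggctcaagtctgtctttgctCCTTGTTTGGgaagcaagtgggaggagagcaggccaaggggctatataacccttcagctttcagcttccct
CNN3: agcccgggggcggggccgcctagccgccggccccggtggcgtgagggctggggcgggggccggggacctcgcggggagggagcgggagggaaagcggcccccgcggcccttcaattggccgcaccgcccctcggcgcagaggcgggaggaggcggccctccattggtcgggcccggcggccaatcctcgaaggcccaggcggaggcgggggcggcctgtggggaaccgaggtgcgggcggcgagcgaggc

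Library totals lay between 14427035 and 17528915 rounded counts. ADRA2A had 0 counts in every empty-vector library and 112, 142, 154 and 172 counts in the 4 ADRA2A libraries, a mean of 9.20 ± 1.30 CPM (SD). Its reads were thus found only where the labels place the transgene, though the counts do not tell transgene from endogenous transcript. Epithelial markers were abundant in all libraries, with a summed level of 12010 to 12581 counts-per-million (CPM) in the empty-vector cells and 11946 to 12997 CPM in the ADRA2A cells. Of the smooth muscle markers MYOCD and PLN had 0 counts in all 8 libraries, MYH11 had at most 3 and DES, LMOD1 and ACTG2 at most 2. Their sum with SYNM, which made up nearly all of it, was 7.73 to 11.2 CPM against 7.26 to 8.86 CPM. The 8 fibroblast markers together reached 2.04 to 2.55 CPM in the empty-vector cells and 1.18 to 1.72 CPM in the ADRA2A cells, with COL3A1, FAP and THY1 at no more than 2 counts in any library.

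Of the 9 members tested, 5 fell and 2 rose with the ADRA2A transgene, at a threshold of 0.05 on the adjusted p-value (edgeR's quasi-likelihood test, Benjamini-Hochberg over all 14785 genes tested). TAGLN, CNN3, TPM1, MYL9 and CNN2 were the 5 that fell, TPM2 and TAGLN2 rose, and SRF and ACTA2 did not pass. In bulk RNA, fewer cells that express a gene and less of its RNA per cell cannot be told apart. Many genes passed in this comparison, 42.7% of those tested, with 21.1% lower and 21.6% higher. For 6 of the 9 members all libraries of one group lay beyond all of the other, 4 lower and 2 higher with ADRA2A. Over all genes tested this held for 39.2%, with 19.5% lower and 19.7% higher. The median log2 fold change was -0.13 over the 9 members and 0.00 over all genes tested.

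**Figure D1:**
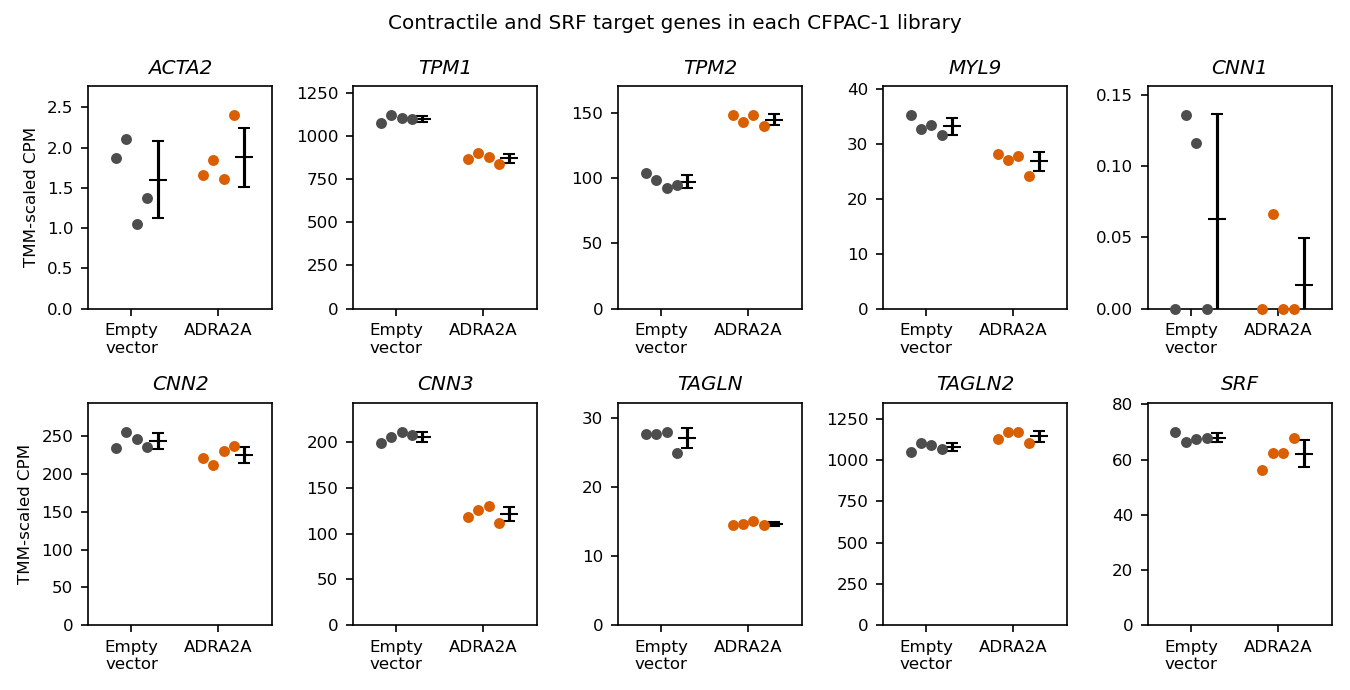
Abundance of each of the 10 members in every library, in TMM-scaled counts-per-million (CPM) on axes that start at 0. Points are libraries (n = 4 per group), and the bar beside them is the mean ± SD, which for CNN1 is drawn only above 0. TAGLN, CNN3, TPM1 and MYL9 lay lower, and TPM2 and TAGLN2 higher, in all 4 ADRA2A libraries than in any empty-vector library.

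Transgelins bind actin filaments and stabilize their bundles. TAGLN (ENSG00000149591.16; GRCh38 chromosome 11, 117199370 to 117207464, plus strand), also called SM22, had 27.6, 27.6, 28.0 and 24.9 CPM in empty-vector replicates 1 to 4 and 14.5, 14.6, 15.1 and 14.4 CPM in ADRA2A replicates 1 to 4. All ADRA2A libraries thus lay below all empty-vector libraries, and the 4 differed little among themselves. The group means were 27.0 ± 1.45 and 14.6 ± 0.292 CPM (SD, n = 4 each), with a log2 fold change of -0.88 (standard error 0.07, adjusted p = 4.42e-09 with edgeR). TAGLN fell by 45.8% (95% interval -51.1% to -40.0%), and 409 of the genes tested had a lower fold change. PCSK7, which overlaps TAGLN on the opposite strand and encodes a proprotein convertase, was at 43.0 ± 1.52 and 43.7 ± 1.23 CPM (SD, n = 4 each; log2 fold change 0.02, edgeR adjusted p = 0.762). The use of strand in counting is not given in the sources used here. The estimated counts of TAGLN were whole numbers in all 8 libraries, and sharing of its reads with PCSK7 was not tested. AP000892.3, annotated on the same strand within TAGLN, was at 1.40 and 0.572 CPM.

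TAGLN2 (ENSG00000158710.14; chromosome 1, 159918107 to 159925507, minus strand), the widely expressed relative of TAGLN, had 1048, 1103, 1092 and 1069.85 CPM in the empty-vector libraries and 1129, 1173, 1172 and 1106 CPM in the ADRA2A libraries. The groups were separated by a narrow gap, from 1103 to 1106 CPM. TAGLN2 rose by 6.20% (95% interval 1.68% to 10.9%) (log2 fold change 0.09, standard error 0.03, adjusted p = 0.0249 with edgeR). This call was lost when any of 4 libraries was left out, at adjusted p-values of 0.0901 without empty-vector replicate 1, 0.0659 without empty-vector replicate 4, 0.0739 without ADRA2A replicate 2 and 0.0777 without ADRA2A replicate 3. It was also lost with upper quartile scaling (adjusted p = 0.0793), and over all alternatives the adjusted p lay between 0.00987 and 0.0901.

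The calponins are actin-binding proteins that slow the myosin motor or strengthen filament bundles. CNN3 (ENSG00000117519.16; chromosome 1, 94896949 to 94927223, minus strand), called acidic calponin, had 199, 205, 212 and 208 CPM in the empty-vector libraries and 118, 125, 130.4 and 112 CPM in the ADRA2A libraries. The highest ADRA2A library was far below the lowest empty-vector library. CNN3 fell by 41.0% (95% interval -44.6% to -37.1%) (log2 fold change -0.76, standard error 0.04, adjusted p = 4.35e-11 with edgeR). Of all genes tested, 3.44% had a lower fold change than CNN3.

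CNN2 (ENSG00000064666.15; chromosome 19, 1026586 to 1039068, plus strand), the calponin of many epithelial and blood cells, had 234, 256, 247 and 236 CPM in the empty-vector libraries and 221, 212, 229.9 and 238 CPM in the ADRA2A libraries. The groups overlapped, because ADRA2A replicate 4 lay above empty-vector replicates 1 and 4. CNN2 fell by 7.33% (95% interval -12.6% to -1.69%) (log2 fold change -0.11, standard error 0.04, adjusted p = 0.0356 with edgeR). The adjusted p was 0.119 without empty-vector replicate 2, 0.0764 without empty-vector replicate 3, 0.1003 without ADRA2A replicate 1 and 0.142 without ADRA2A replicate 2, in a range of 0.0125 to 0.142 over all alternatives. CNN1 (ENSG00000130176.8; chromosome 19, 11538767 to 11550323, plus strand), the calponin of smooth muscle, had 0, 2, 2 and 0 counts in the empty-vector libraries and 0, 1, 0 and 0 in the ADRA2A libraries. It stayed under the floor of 3 counts in every library, was not tested, and no difference in it was detectable at this depth.

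TPM1 (ENSG00000140416.21; chromosome 15, 63042620 to 63071915, plus strand) encodes the alpha tropomyosin chain. Its libraries had 1079, 1124, 1104 and 1103 CPM with the empty vector and 867, 903, 881 and 839 CPM with ADRA2A, with no overlap. TPM1 fell by 20.8% (95% interval -24.2% to -17.3%) (log2 fold change -0.34, standard error 0.03, adjusted p = 2.14e-08 with edgeR).

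TPM2 (ENSG00000198467.14; chromosome 9, 35681992 to 35690056, minus strand) encodes the beta tropomyosin chain and went the other way. It had 104, 98.8, 92.0 and 94.6 CPM in the empty-vector libraries and 148, 143, 148 and 139.5 CPM in the ADRA2A libraries. Every ADRA2A library lay above every empty-vector library. TPM2 rose by 48.8% (95% interval 39.8% to 58.3%) (log2 fold change 0.57, standard error 0.04, adjusted p = 1.76e-09 with edgeR), and 93.2% of all genes tested had a lower fold change. The other 2 tropomyosin genes, TPM3 and TPM4, which are no members and were examined after their values were seen, fell slightly (log2 fold changes -0.11 and -0.12, edgeR adjusted p = 0.00834 and 0.0029).

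MYL9 (ENSG00000101335.10; chromosome 20, 36541497 to 36551447, plus strand) encodes a regulatory light chain of myosin II. Its libraries had 35.3, 32.6, 33.3 and 31.5 CPM with the empty vector and 28.2, 27.0, 27.7 and 24.2 CPM with ADRA2A. The groups did not overlap, and ADRA2A replicate 4 was the lowest. MYL9 fell by 19.4% (95% interval -26.5% to -11.6%) (log2 fold change -0.31, standard error 0.06, adjusted p = 0.000555 with edgeR).

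ACTA2 (ENSG00000107796.13; chromosome 10, 88935074 to 88991339, minus strand) encodes smooth muscle alpha-actin, the usual marker of myofibroblasts. It was near the lower end of the genes tested, at the 10.6th percentile of abundance, with between 18 and 38.0 estimated counts per library. The libraries had 1.87, 2.10, 1.05 and 1.37 CPM with the empty vector and 1.66, 1.85, 1.60 and 2.40 CPM with ADRA2A, and the groups overlapped. The fitted log2 difference was 0.24 (standard error 0.27, adjusted p = 0.513 with edgeR), and its 95% interval ran from -20.3% to 74.2%, so that a change of the size seen in TAGLN or CNN3 in the downward direction lay outside it. The coding sequences of the actin genes are closely alike, and estimated counts with decimals in 5 of the 8 libraries show that some ACTA2 reads were shared with other genes. FAS and STAMBPL1, which overlap ACTA2 on the opposite strand, were at 19.9 and 15.4 CPM with the empty vector and 22.8 and 12.4 CPM with ADRA2A, well above ACTA2 itself.

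SRF (ENSG00000112658.8; chromosome 6, 43171269 to 43181506, plus strand), the transcription factor itself, had 70.2, 66.5, 67.4 and 67.7 CPM in the empty-vector libraries. The ADRA2A libraries had 56.1, 62.4, 62.2 and 67.9 CPM, 3 of them below every empty-vector library and replicate 4 within their range. The fitted log2 difference was -0.13 (standard error 0.05, 95% interval -0.24 to -0.02), and the adjusted p of 0.0549 in edgeR's quasi-likelihood test did not pass the threshold. It passed without ADRA2A replicate 4 (adjusted p = 0.0112), with upper quartile scaling (0.0321) and with testing limited to genes that averaged 50 counts or more (0.0471), and it ranged from 0.0112 to 0.220 over all alternatives. The 3 genes whose log2 CPM over the 8 libraries was most alike to that of SRF were MIGA2, AC138409.2 and RPS10-NUDT3, with Pearson r of 0.98, 0.97 and 0.97. This likeness describes 8 libraries that share the 2 groups.

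**Figure D2:**
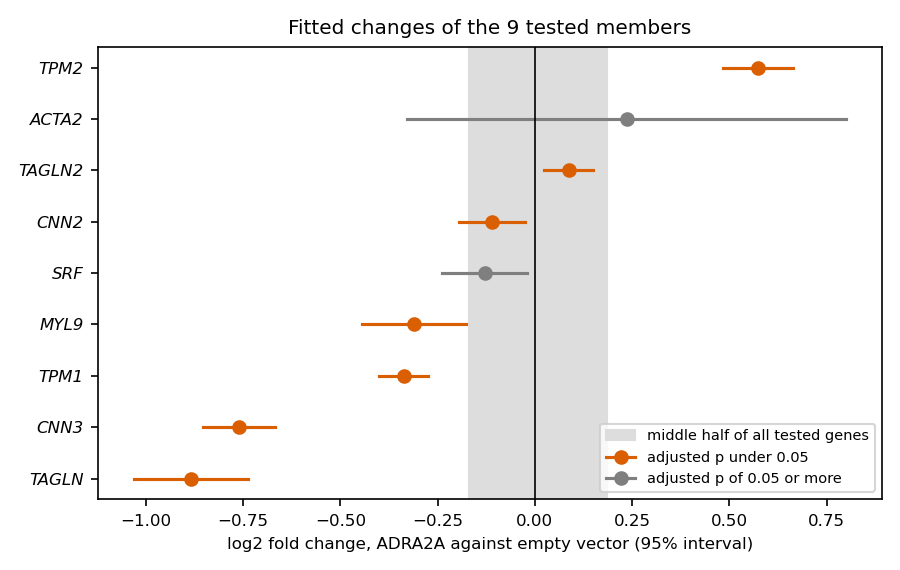
Fitted log2 fold change of the 9 tested members, ADRA2A against empty vector, with 95% intervals. Orange marks an adjusted p under 0.05, and the grey band spans the first to the third quartile of all genes tested, -0.17 to 0.19. TAGLN at -0.88, CNN3 at -0.76 and TPM2 at 0.57 lie farthest from 0, and the interval of ACTA2 is the widest.

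Related genes were then compared within each library, where the scaling largely cancels in the ratio of 2 genes. To both genes 0.1 CPM was added, so the scaling does not cancel fully at low levels. The log2 ratio of TAGLN to TAGLN2 went from -5.31 ± 0.08 to -6.28 ± 0.03, a difference of -0.96. That of TPM1 to TPM2 went from 3.50 ± 0.09 to 2.59 ± 0.05, a difference of -0.91, and that of CNN3 to CNN2 from -0.24 ± 0.06 to -0.89 ± 0.14, a difference of -0.65 (SD, n = 4 each). In each of these 3 pairs the 4 ADRA2A libraries lay below the 4 empty-vector libraries, and the two-sided exact permutation p of 0.0286 was the smallest that 4 against 4 allows (0.0381 after Benjamini-Hochberg adjustment over the 4 pairs tested). For TAGLN to TAGLN2 and TPM1 to TPM2 this separation was fixed beforehand, since TAGLN and TPM1 fell and TAGLN2 and TPM2 rose without overlap. For CNN3 to CNN2 it followed too, as the gap between the CNN3 groups was wider than the whole spread of CNN2. These p-values therefore add nothing to the results of the single genes, and the ratios only describe how far the paired genes moved apart. For ACTA2 against ACTB, the cytoplasmic beta-actin gene, the log2 ratio went from -11.60 ± 0.44 to -11.14 ± 0.26 (SD, n = 4 each), with an exact permutation p of 0.171 before and after adjustment. With 0.5 CPM added instead of 0.1, this difference was 0.41 instead of 0.46 (exact permutation adjusted p = 0.143). Those of the first 3 pairs were then -0.95, -0.91 and -0.65. Leaving out a library took the smallest adjusted p that the first 3 pairs could reach to 0.0762, and their differences then lay between -1.0 and -0.94 for TAGLN to TAGLN2, -0.95 and -0.88 for TPM1 to TPM2, and -0.70 and -0.59 for CNN3 to CNN2.

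**Figure D3:**
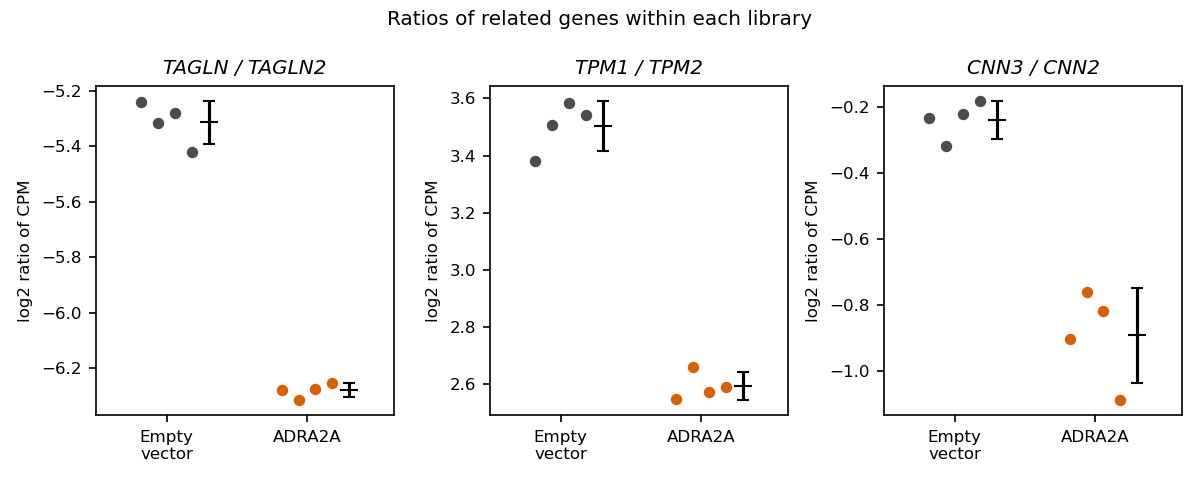
Log2 ratio of CPM of related genes within each library (0.1 CPM added to both genes), for TAGLN to TAGLN2, TPM1 to TPM2 and CNN3 to CNN2. Points are libraries (n = 4 per group) and bars the mean ± SD. In all 3 panels the ADRA2A libraries lie below the empty-vector libraries, with means lower by 0.65 to 0.96.

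Levels of different genes can be compared only per length, as counts per base scaled so that all genes of a library sum to 1000000. With the merged exons of GENCODE release 44 as the length, TAGLN2 was the highest member in the empty-vector cells at 1900 ± 24.6, followed by TPM1 at 299 ± 3.59, CNN3 at 295 ± 6.77 and CNN2 at 266 ± 8.51 (SD, n = 4 each). TPM1 and CNN3 did not differ beyond their spread. TPM2 followed at 122 ± 7.01, SRF at 64.0 ± 2.08, MYL9 at 47.1 ± 2.35, TAGLN at 16.4 ± 0.771 and ACTA2 at 1.13 ± 0.335, with CNN1 last at 0.0876 ± 0.102. In the ADRA2A cells CNN2, at 248 ± 12.6, stood above CNN3 at 175 ± 10.2, and TPM2, at 182 ± 5.75, was level with CNN3 within their spread. The order depends on the length chosen, since the merged exons of TPM1 (14700 bases) hold many alternative transcripts: with the canonical transcript TPM1 stood first at 2075 ± 22.3, above TAGLN2 at 1796 ± 21.1, and CNN2 at 259 ± 8.09 was above CNN3 at 237 ± 5.28 in the empty-vector cells too. In the ADRA2A cells TPM2 was then at 280 ± 8.29, above CNN3 at 140 ± 7.51 and no longer level with it.

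Within families these levels per length gave the following shares. TPM2 made up 15.4% ± 0.821 of the 4 tropomyosin genes in the empty-vector cells and 23.9% ± 0.539 in the ADRA2A cells, or 6.23% ± 0.357 and 10.7% ± 0.302 with canonical lengths (SD, n = 4 each). CNN3 made up 52.6% ± 1.0 of the calponin level with the empty vector and 41.4% ± 2.39 with ADRA2A. With canonical lengths these shares were 47.8% ± 1.00 and 36.8% ± 2.29. TAGLN was a small part of the transgelins in both, 0.858% ± 0.0454 and 0.440% ± 0.00781. Among the actins ACTA2 was 0.0142% ± 0.00418 and 0.0193% ± 0.00398, or 0.0258% ± 0.00759 and 0.0350% ± 0.00721 with canonical lengths, the rest being ACTB and ACTG1 apart from a few counts.

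The members lie at 9 separate places on 8 chromosomes among those tested, and the genes around them were examined because stretches of chromosome had been seen to shift together in these data. The median log2 fold change of the 20 tested neighbours, 10 on each side, was -0.23 around MYL9, where 9 of the 20 were lower and 4 higher at an adjusted p under 0.05. MYL9 itself had -0.31. Around TAGLN2 the median was 0.20, with 11 of 20 neighbours higher and 2 lower, against 0.09 for TAGLN2 itself. For the other 7 tested members the median lay between -0.07 and 0.15. Around each of these, 3 to 8 of the 20 neighbours were called higher and 4 to 7 lower. Over all genes tested, 21.6% were called higher and 21.1% lower. TPM2 and its neighbours differed in sign (0.57 against -0.07), as did TPM1 and its neighbours (-0.34 against 0.11), while TAGLN at -0.88 and CNN3 at -0.76 stood among neighbours with medians of -0.05 and -0.03. The part of the neighbourhood in these values was not tested.

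Further lists of genes around SRF and actomyosin were set beside the members. Over all genes tested, 42.7% were called, with 21.1% lower and 21.6% higher. Of 6 SRF cofactor genes 5 were tested, with 1 higher, 1 lower and a median log2 fold change of 0.01, close to the share over all genes. MRTFA, an MRTF coactivator, went from 32.6 ± 3.58 to 27.4 ± 1.53 CPM (SD, n = 4 each) and fell (log2 fold change -0.25, edgeR adjusted p = 0.0109), although the groups overlapped. MRTFB, the other MRTF coactivator, was at 0.01 (adjusted p = 0.932). The ternary complex factor ELK3 rose by 0.15 (adjusted p = 0.00947), ELK1 and ELK4 were at 0.07 and -0.08 (adjusted p = 0.255 and 0.242), and MYOCD, the cofactor of muscle, had 0 counts in all libraries. Without ADRA2A replicate 4 the number of cofactors called lower was 2, as ELK4 then passed at -0.14 (adjusted p = 0.0409).

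In the list of MRTF-SRF targets outside the members, 12 of 19 tested genes fell and 3 rose. Over all genes tested, 21.1% were called lower and 21.6% higher. The median log2 fold change of the list was -0.34. ANKRD1, a stretch-responsive nuclear cofactor, went from 771 ± 24.3 to 449 ± 18.8 CPM (SD, n = 4 each) (log2 fold change -0.78, standard error 0.04, adjusted p = 9.71e-13 with edgeR). CCN1, a secreted matricellular protein, and WDR1, a partner of cofilin in filament disassembly, also fell (log2 fold changes -0.64 and -0.54, edgeR adjusted p = 1.70e-11 and 8.65e-11). ITGA5, the alpha chain of the fibronectin receptor, went against the list, from 10.0 ± 1.26 to 32.5 ± 0.927 CPM (log2 fold change 1.70, standard error 0.08, adjusted p = 2.49e-12 with edgeR). PDLIM5 rose by 0.28 and FHL2, a LIM-domain protein that binds SRF, by 0.11 with overlapping groups (edgeR adjusted p = 8.78e-06 and 0.0340). The call of FHL2 was lost without ADRA2A replicate 3 or empty-vector replicate 1, 3 or 4 (adjusted p = 0.145, 0.0648, 0.0693 and 0.116) and with upper quartile factors (0.0790). ANKRD1 and CCN1 are also targets of YAP and TEAD factors, so the list is not particular to SRF.

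The remaining actomyosin machinery moved mostly one way. Of 26 genes 20 were tested, 15 fell, 2 rose and the median log2 fold change was -0.23, against 21.1% lower and 21.6% higher over all genes tested. CALD1, the actin-binding protein caldesmon, went from 32.0 ± 2.44 to 20.1 ± 0.690 CPM (SD, n = 4 each) (log2 fold change -0.68, standard error 0.07, adjusted p = 1.33e-07 with edgeR). MYL12A, a light chain closely related to MYL9, and MYLK, the kinase that phosphorylates these light chains, fell as well (log2 fold changes -0.56 and -0.49, edgeR adjusted p = 3.87e-09 and 3.93e-09). The highest fold change was that of MYH14, a non-muscle myosin heavy chain, which went from 71.2 ± 4.47 to 89.2 ± 3.15 CPM and rose by 0.33 (edgeR adjusted p = 1.69e-05), followed by PPP1CB, a catalytic subunit of the phosphatase that acts on the light chains, at 0.14 (adjusted p = 0.00114). The abundant heavy chain gene MYH9 and the actin genes ACTB and ACTG1, chosen after their values were seen, fell too (log2 fold changes -0.48, -0.21 and -0.20, edgeR adjusted p = 5.86e-11, 2.04e-06 and 8.29e-06). ACTA1, ACTC1 and ACTG2, the actins of skeletal, cardiac and enteric smooth muscle, had at most 2 counts in any library and were not tested.

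The genes listed as immediate early targets of ternary complex factors and SRF moved in both directions. Whether these factors drive each listed gene in these cells was not tested. Of 14 genes 11 were tested, 5 rose and 2 fell, against 21.6% higher and 21.1% lower over all genes tested. The median log2 fold change was 0.38, which is the value of FOSB, a gene with 10 to 25 counts that did not pass (edgeR adjusted p = 0.305). The summed level of the list was lower with ADRA2A, at 994 to 1026 CPM against 1041 to 1080 CPM with the empty vector, without overlap. That sum rests mostly on MCL1, FOSL1 and IER3, at 439, 253 and 215 CPM with the empty vector and 422, 170 and 178 CPM with ADRA2A. It does not describe the list as a whole. FOS, a subunit of the AP-1 factor, went from 11.4 ± 0.912 to 41.3 ± 5.13 CPM (SD, n = 4 each) (log2 fold change 1.87, standard error 0.09, adjusted p = 2.23e-12 with edgeR). JUNB, another AP-1 subunit, rose by 0.64 and the phosphatase gene DUSP1 by 0.63 (edgeR adjusted p = 1.71e-08 and 0.000182). FOSL1 and IER3 fell (log2 fold changes -0.58 and -0.28, edgeR adjusted p = 1.12e-09 and 3.88e-05), and EGR1 was at 0.11 (edgeR adjusted p = 0.236). The difference between this list and the MRTF-SRF targets was not tested, and all 4 lists were written with earlier results of these data known.

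**Figure D4:**
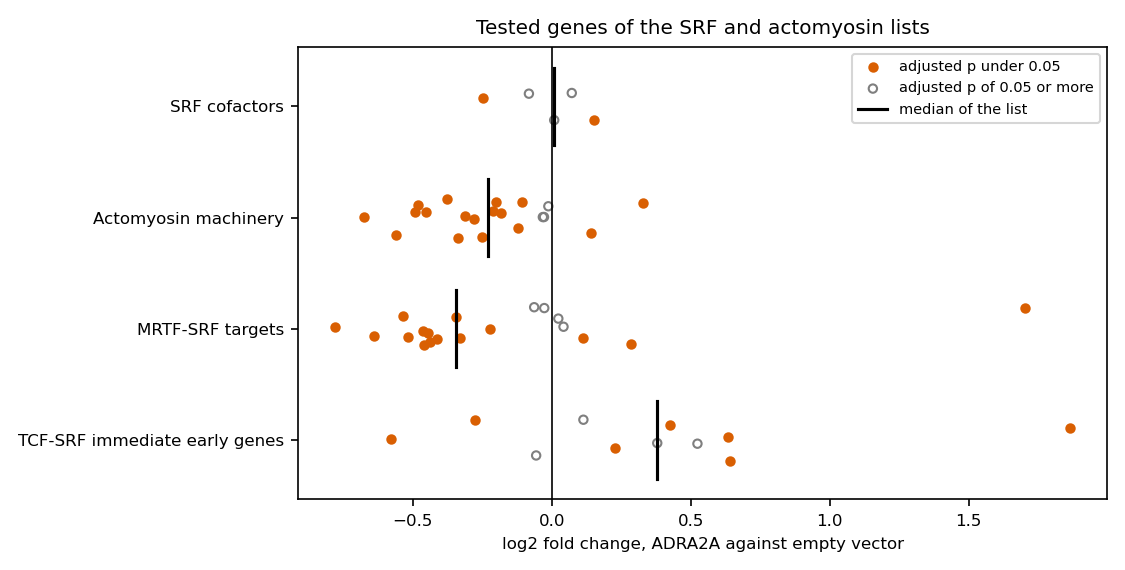
Log2 fold change, ADRA2A against empty vector, of every tested gene of the 4 lists. Filled orange points have an adjusted p under 0.05, open points do not, and the black line is the median of the list. The medians of the actomyosin machinery and of the MRTF-SRF targets lie at -0.23 and -0.34 and that of the immediate early genes at 0.38.

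Of the marker lists, 3 epithelial genes were higher (MUC1, KRT19 and EPCAM) and 4 lower (KRT17, KRT7, CDH1 and KRT18) of 8 tested. Over all genes tested 21.6% were called higher and 21.1% lower. MUC1, a membrane mucin, rose and KRT17, a keratin of basal cells, fell (log2 fold changes 0.79 and -0.69, edgeR adjusted p = 4.76e-12 and 5.48e-06). KRT18 (-0.09, adjusted p = 0.0315) lost its call when ADRA2A replicate 1 or 4 or empty-vector replicate 2, 3 or 4 was left out (adjusted p = 0.108, 0.115, 0.0707, 0.0576 and 0.0597). One fibroblast and 1 smooth muscle marker were abundant enough to test, LUM at -0.55 and SYNM at -0.22, and neither passed (edgeR adjusted p = 0.168 and 0.176). Of the endothelial markers PECAM1 rose, from 0.773 ± 0.300 to 2.44 ± 0.295 CPM (SD, n = 4 each; edgeR adjusted p = 8.12e-05), while VWF had at most 4 counts in any library, going from 0.235 ± 0.0431 to 0.0323 ± 0.0373 CPM, and CDH5 at most 1, so neither was tested. Among leukocyte markers CD68, a lysosomal protein, rose by 0.32 (edgeR adjusted p = 4.22e-06), while CD3E had 0 counts in all libraries and PTPRC at most 4.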

How the data were processed

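RNA from 8 CFPAC-1 samples was sequenced with an Illumina NextSeq instrument, as stated in the labels' protocols. The authors deposited 1 table of RSEM estimated counts per gene, not scaled between samples, and cutadapt, STAR, RSEM, DESeq2 and hg38 are named in the submitters' processing notes without versions or roles. Annotation release and strand use are not given in the sources used here. All 8 columns were matched to samples by title, and replicate numbers were taken from the labels. Estimated counts were rounded, genes were filtered with edgeR's filterByExpr (14785 of 58870 kept), and edgeR 4.0.16 in R 4.3.3 was fitted with TMM factors (0.9938 to 1.0055) and no term but the group. The Benjamini-Hochberg adjustment ran over the 14785 genes, and the threshold was 0.05. The 95% intervals use the fit's degrees of freedom. Genes were matched to GENCODE release 44 on GRCh38 by Ensembl identifier (99.4%).

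All members were named, and from each list the 3 highest and 3 lowest fold changes among genes that passed and averaged 10 CPM or more in either group, and every SRF cofactor. Further genes were chosen after their values were seen. A further list of genes is not reported here. The members and lists were chosen with earlier results of these data known. Alternatives were DESeq2 1.42.0, limma 3.58.1 voom, RLE and upper quartile factors, other filters, a replicate block and leaving out each library.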

Additional observations from a re-analysis of the deposited data

Results flagged for a closer look

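In 77 groups of 4 libraries, the abundances of 40 genes were searched for a library whose gap to the nearest other took more of the range than Dixon's 95% critical value allows, which chance does in about 1 group in 20. There were 8 such groups. Among the members, TAGLN was lowest in empty-vector replicate 4 (24.9 CPM against 27.6 to 28.0, a gap of 0.878 of the range), and without that library its log2 fold change was -0.92. The single count of CNN1 in ADRA2A replicate 2 took the whole range (1.000), the other 3 libraries being at 0.

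Outside the members, ANKRD1 was lowest in ADRA2A replicate 4 (421 CPM, 0.893) and MRTFB highest there (57.9 CPM, 0.861). FHL2 was highest in ADRA2A replicate 3 (181 CPM, 0.859), FOSL1 in empty-vector replicate 3 (271 CPM, 0.902), MYH14 in empty-vector replicate 2 (77.8 CPM, 0.879) and MYLK in empty-vector replicate 1 (153 CPM, 0.883). These groups named 7 of the 8 libraries.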

How the results depend on the processing

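The fold changes of TAGLN, CNN3, TPM1, TPM2 and MYL9 kept their direction and their side of the threshold under all 15 alternatives, and no member reversed under any. When libraries were left out singly, TAGLN lay between -0.92 and -0.87, CNN3 between -0.80 and -0.72, TPM1 between -0.35 and -0.32, TPM2 between 0.55 and 0.60 and MYL9 between -0.33 and -0.26. CNN2 lay between -0.136 and -0.0812 and TAGLN2 between 0.0726 and 0.104, each losing its call in 4 of these fits, and SRF between -0.172 and -0.0814, gaining it in 1. With upper quartile factors TAGLN2 was at 0.07 (not called) and SRF at -0.15 (called), and with the filter at a mean of 50 counts SRF was at -0.13 (called). The number of members called higher was 1 with upper quartile factors and 1 to 2 without 1 library. The cause of these changes was not tested. ACTA2 lay between 0.07 and 0.39 without 1 library, never passed, and was not tested above a mean of 50 counts. Of 39 other genes named and tested, 36 kept their calls and ELK4, FHL2 and KRT18 did not. With no filter CNN1 had an adjusted p of 0.514.

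Same-numbered libraries did not deviate together (correlations -0.042 to 0.070, and 1 of the 4 ADRA2A libraries was most alike to its own number), so the replicate numbers were not taken as pairs. With the replicate block 6400 genes were called, against 6314 without it, and no call of a member changed. For the ratios of related genes the replicate block left the differences at -0.96, -0.91 and -0.65 for TAGLN to TAGLN2, TPM1 to TPM2 and CNN3 to CNN2, with an exact p of 0.125, the smallest that 4 pairs allow. Without 1 library they lay between -1.0 and -0.94, -0.95 and -0.88, and -0.70 and -0.59, again with too few divisions to pass.

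Canonical transcript lengths, chosen after seeing the data, changed the levels per length in the empty-vector cells to 2.71 for ACTA2, 2075 for TPM1, 187 for TPM2, 27.3 for MYL9, 237 for CNN3, 1796 for TAGLN2 and 36.8 for SRF. The length of SRF is 4231 bases either way, so its change comes from the rescaled sum over all genes. Depth limits CNN1 and ACTA2 most.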
